A study of Homo sapiens with 9 samples.

Results

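TC32 cells are an established line of Ewing sarcoma, a tumour driven by fusions such as EWS::FLI1, and those studied here are labelled WT and were grown in medium with 10% FBS and L-gln. The comparison described is that of 3 siNEG libraries, from cells given a nonspecific siRNA, with 3 Media libraries, both labelled 30 h, batch 1 and biological replicates 1 to 3. Its members are the 16093 genes with enough counts for edgeR's filter, of 60603 genes in the count table, and its libraries are 6 of the 9 in the series. The other 3 libraries, siEF, are from cells given an siRNA over the fusion breakpoint, and they entered the fit to estimate the spread between replicates and are given beside some results. The treatment protocol in the labels names plating on siRNA for every sample, Media included, so the media cells were taken as untransfected from their treatment label. The transfection reagent and the siNEG sequence are not given in the sources used here, and a media group that received the reagent alone was not analysed here. Differences between siNEG and media therefore hold the siRNA and its delivery together, which cannot be told apart. All libraries come from 1 cell line, and in bulk RNA a change in the number of cells of a kind and a change in RNA per cell cannot be told apart.

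A nonspecific siRNA is designed to match no transcript of the cell over its full length and serves as the control for siRNAs with a target. Double-stranded RNA taken up by cells can be bound by Argonaute proteins, and it can be sensed by receptors of the interferon system. An siRNA strand held by Argonaute can also pair through its seed, the bases near its 5′ end, with short sites in the 3′ UTR of other mRNAs, as a microRNA does, which lowers those mRNAs. Lipid carriers used for delivery enter cells through endosomes and add lipid to them. The comparison asks which of these and which other functions moved at 30 h.

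Total expected counts ranged from 28702350 to 33134581 over the 6 libraries, and TMM scaling factors from 0.994 to 1.03. The share of counts from the mitochondrial genome was between 1.53% and 3.53%, without separation of the groups. Markers of Ewing sarcoma summed to between 3120 and 3270 CPM (expected counts scaled to a common library total) in media and between 2880 and 3050 CPM in siNEG. The immune, epithelial and endothelial markers summed to at most 8.76 CPM in any of the 6 libraries, with CD3D, CD3E, MS4A1, KRT19, ROBO4, ERG and TIE1 at 0. The fibroblast markers summed to between 690 and 747 CPM with COL1A2 at 0, and their part in the results was not tested.

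Calls required edgeR's quasi-likelihood test to give P below 0.01 after adjustment. By that rule 616 genes were higher in siNEG than in media, which is 3.83% of the genes tested, and 959 were lower, which is 5.96%. Most changes were small: the median size of the log2 fold change of the 1575 called genes was 0.378, and 1106 of them (70.2%) stayed under 0.5. Only 26 genes rose (0.162%) and 43 fell (0.267%) by more than 1 on the log2 scale, and in each of these 69 genes the 3 siNEG libraries did not overlap the 3 media libraries. Over all genes tested, 15.5% had siNEG libraries above every media library and 17.3% below. Of the 13369 protein-coding genes tested, 594 rose and 937 fell, while of the 1484 lncRNA genes 16 rose and 12 fell. The counts at an adjusted P under 0.01 rested on the number of libraries: without siNEG replicate 2 they were 332 and 634, and without siNEG replicate 3 the higher genes were 365. siNEG replicate 1 differed more from replicates 2 and 3 (chi-square per degree of freedom 18.2 and 23.2) than these did from each other (3.66), and without it the counts were 587 and 670. By the same measure the pairs of media libraries lay between 10.35 and 15.67.

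The 10 largest falls and 10 largest rises were taken among called genes beyond 1 with a mean of at least 1 CPM in the higher group. The choice also required that the 3 siNEG and 3 media libraries did not overlap. All 10 falls were in protein-coding genes. PRSS35, a secreted serine protease-like protein, was at 64.7, 63 and 66.7 CPM in media replicates 1, 2 and 3 and at 12.5, 14.9 and 14.1 CPM in siNEG. Its log2 fold change of -2.22 (standard error, SE, 0.096, adjusted P = 5.43e-10) left the siNEG libraries near 0.214 of the media level. SMIM15, a small integral membrane protein, was at 93.3, 85.2 and 93.8 CPM in media and 25.1, 28.8 and 25.2 CPM in siNEG (log2 fold change -1.78, SE 0.076). MIGA1, a mitochondrial outer membrane protein that promotes fusion of mitochondria, was at 103, 109 and 119 CPM in media and 37.1, 38 and 32.5 CPM in siNEG (log2 -1.62, SE 0.067). IL1RAP, the accessory receptor chain of interleukin-1, was at 103, 114 and 121 CPM in media and 38.5, 39.6 and 41.2 CPM in siNEG (log2 -1.5, SE 0.062). In all 4 genes every siNEG library lay far below every media library, with the spread within a group small beside the gap. CLDN1, a tight junction protein, fell by 1.66 on the log2 scale, CSGALNACT2, an enzyme of chondroitin sulfate synthesis, by 1.54, and SNTB1, a syntrophin of the dystrophin complex, by 1.46. The guanine deaminase gene GDA (4.08, 3.4 and 4.89 CPM in media and 0.916, 0.884 and 0.93 CPM in siNEG), the calcineurin regulator RCAN2 and the sarcomere gene NEB complete the 10, at log2 values of -2.17, -1.79 and -1.52. The calls of RCAN2 and NEB were lost without siNEG replicate 3 (adjusted P = 0.0152 and 0.0118), and also without siNEG replicate 2 or media replicate 3 for RCAN2 and media replicate 2 for NEB.

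The largest rises included ligands, a hyaluronan synthase and an ETS factor. IL1A, an interleukin-1 that is released by stressed cells, was at 0.555, 0.317 and 0.594 CPM in media and 1.74, 1.92 and 2.08 CPM in siNEG (log2 1.97, SE 0.28, adjusted P = 0.000124). TNFSF4, the ligand of the costimulatory receptor OX40, rose from 0.261, 0.317 and 0.419 CPM to 1.14, 1.15 and 1.41 CPM (log2 1.88). HAS3, a hyaluronan synthase, was at 2.55, 1.81 and 1.54 CPM in media and 6.54, 6.19 and 6.96 CPM in siNEG (log2 1.73, SE 0.16). ETV4, an ETS factor that is induced by ERK signalling, was at 2.38, 2.16 and 1.92 CPM in media and 6.89, 5.25 and 5.99 CPM in siNEG (log2 1.48, SE 0.19). None of these 4 genes overlapped between the groups, as the choice required, and IL1A and TNFSF4 rest on only 8 to 65 counts per library. The VEGF receptor KDR rose by 1.44, TMEM150A by 1.35, the matrix protein THBS1 by 1.33 on the log2 scale, the lncRNA AC008938.1 by 1.82 and AL513165.2, annotated as protein-coding, by 1.51. COLCA1 rose by 1.42, and its call was lost without siNEG replicate 2 or 3 or media replicate 2 or 3 (adjusted P between 0.0158 and 0.0188).

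**Figure D1:**
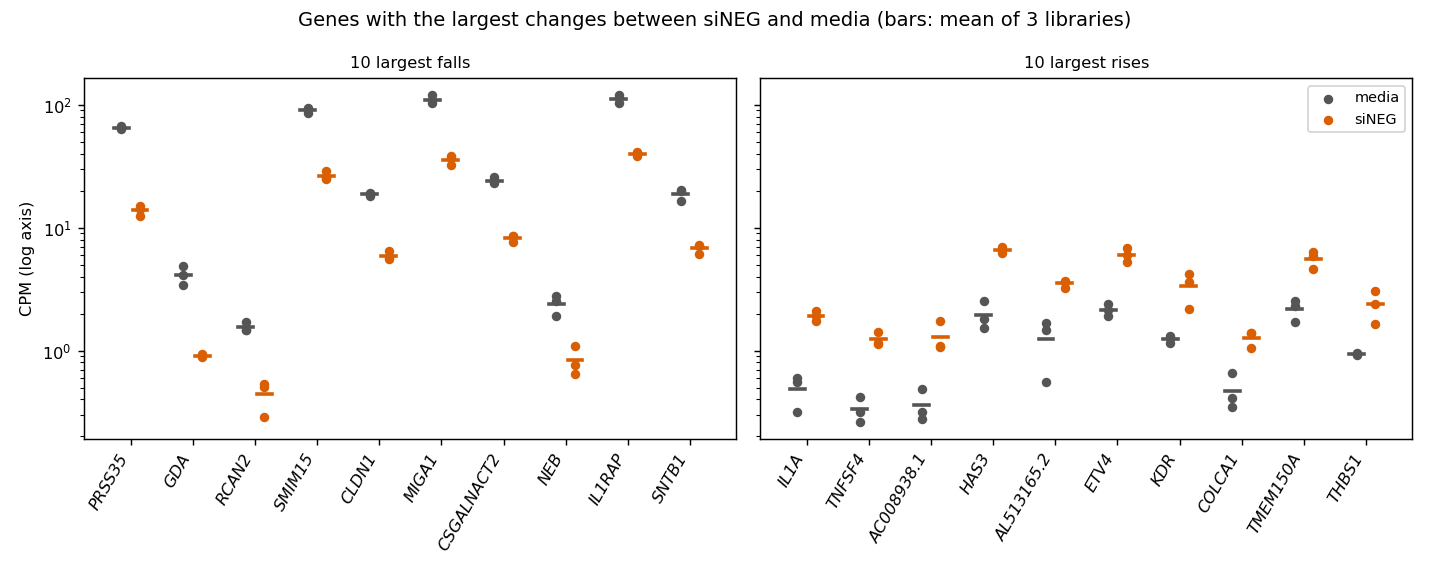
CPM (log axis) of the 10 genes that fell most and the 10 that rose most between media (grey) and siNEG (orange), with 3 libraries a group as points and their mean as a bar. By the rule that chose them, every siNEG library lies outside the range of the media libraries in each of the 20 genes.

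Many of the mRNAs that fell held the same short word in their 3′ UTR. Among the 15970 words of 7 bases that were held by the 3′ UTR of at least 100 of 13318 tested genes (canonical transcripts of GENCODE release 44), ATTACAA had the highest share of genes called lower. It was held by 1845 genes, of which 329 (17.8%) were lower and 56 (3.04%) higher, beside 7.04% and 4.46% of all 13318 genes. The second word by this share, GCGAGCG, was held by 106 genes and reached 17%. The next word held by 1000 genes or more, TTACAAA, overlaps ATTACAA, ranked 9 and reached 14.8%. By the lowest median log2 fold change ATTACAA ranked 9. The word was chosen for this share after the values were seen, so the values are a description with no test. Of the 42 genes with a 3′ UTR that fell by more than 1, 25 (59.5%) held the word, beside 13.9% of all genes and 1 of the 20 that rose by more than 1. It was present in 9 of the 10 largest falls, all but NEB. The sites below, with the word in capitals, are a choice of the sites in genes named above, all of them followed by A, read 5′ to 3′ from the GRCh38 transcripts. They show that the bases on either side differ from gene to gene.
PRSS35 (chr6:83525232-83525258, plus strand): tttttgaagaATTACAAatcagaagaa
SMIM15 (chr5:61159085-61159111, minus strand): taattcgccgATTACAAagacaccatt
SMIM15 (chr5:61158662-61158688, minus strand): tgaattttaaATTACAAaaaattgtct
MIGA1 (chr1:77875126-77875152, plus strand): tgtaacatatATTACAAagttaacaga
MIGA1 (chr1:77879000-77879026, plus strand): gattatttgcATTACAAaggaattctt
CSGALNACT2 (chr10:43184892-43184918, plus strand): catctgaaatATTACAAatttcaaatt
CLDN1 (chr3:190308149-190308175, minus strand): gaagtatggtATTACAAaacaaacaaa
IL1RAP (chr3:190651247-190651273, plus strand): agagtgtctaATTACAAaatcatatac

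Further sites of these genes were not printed, and in PRSS35, CSGALNACT2 and RCAN2 1 of the sites is followed by T. The 862 genes that held the word followed by A (ATTACAAA) had a median log2 fold change of -0.126 with 217 (25.2%) lower, while followed by C, G or T the medians lay between -0.0549 and -0.0431 with 13.2% to 13.7% lower. Of the 1479 genes with 1 copy 16% were lower, and of the 366 with 2 or more copies 25.4%, beside 5.3% of the 11473 genes without a copy. Of the genes with only the last 6 bases of the word (3072 genes) 7.23% were lower, and of those with only the first 6 (3216 genes) 5.25%. Both sets are part of the genes without a copy, of which 5.3% were lower. The 1071 genes that held the word in the coding sequence and not in the 3′ UTR had 7.84% lower and a median of -0.00575. Holders had longer 3′ UTRs (median 3299 bases) than the other genes (1120 bases), and longer sequences hold more words of any kind. Within the 4440 longest 3′ UTRs, 17.3% of holders and 5.75% of the others were lower, and within the 4439 shortest 22% and 4.33%. By mean CPM, the shares were 23.6% and 8.61% in the upper range, 20.4% and 5.7% in the middle and 7.02% and 1.73% in the lower. None of the 2545 mature human miRNA entries of RefSeq has bases 2 to 8 complementary to the word. Whether a strand of siNEG does was not tested, since its sequence is not given in the sources used here. In siEF against media, which shares the media libraries, the median was -0.0412 in holders and 0.0403 in the other genes. In the lower range of 3′ UTR GC content these siEF medians were -0.122 and -0.14, and in the middle 0.027 and 0.00141. In the upper range they were 0.282 and 0.23, so holders were not lower within any range of GC content. By length of the 3′ UTR, the siEF medians of holders and others were -0.0565 and 0.0529 in the longest. They were -0.011 and 0.0833 in the middle range and -0.0105 and -0.0125 in the shortest. In siNEG against media, 20.1%, 14.3% and 20.1% of holders were lower in the GC ranges, beside 4.89%, 4.9% and 5.97% of the others.

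**Figure D2:**
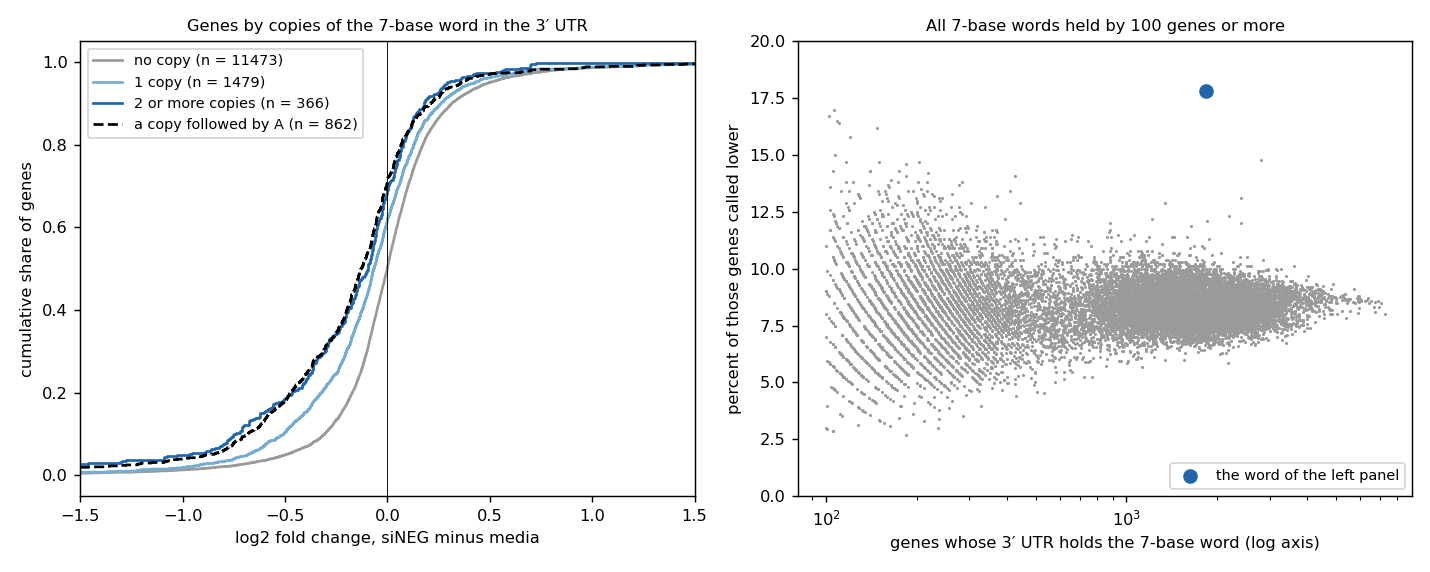
Left, cumulative share of genes by log2 fold change of siNEG minus media, for genes with no copy of the 7-base word in the 3′ UTR, 1 copy, 2 or more copies, and a copy followed by A. Right, each point is a 7-base word held by at least 100 genes, with the number of genes that hold it (log axis) and the percent of those called lower. The curves of the holders lie to the left of the curve without a copy, and the word of the left panel, at 1845 genes and 17.8%, lies above the other words.

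Sites of natural miRNAs were searched in the same 3′ UTRs. The canonical site is the complement of the seed (bases 2 to 8) followed by A, and 32 miRNAs of a list of common families were found in RefSeq. By the share of genes with the site that were higher, the 32 ranged from 4.85% to 12.9%. The 3 below rank 1, 2 and 6 and were chosen after these shares were seen, with the seed in capitals.
hsa-miR-92a-3p: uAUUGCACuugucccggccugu
hsa-miR-17-5p: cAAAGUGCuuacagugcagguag
hsa-let-7a-5p: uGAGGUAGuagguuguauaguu
Of 487 genes with the site of miR-92a-3p, 63 (12.9%) were higher, of 732 with that of miR-17-5p 77 (10.5%), and of 581 with that of let-7a-5p 54 (9.29%). Of the 4440 genes with the longest 3′ UTRs, holding the site or not, 6.62% were higher and 9.14% lower. The medians of the 3 groups were 0.0403, 0.05 and 0.0359, with 51 (10.5%), 50 (6.83%) and 40 (6.88%) genes lower. Genes with a let-7 site were among those that rose. HMGA2, a chromatin protein of embryonic cells, was at 79.8, 85.3 and 92.8 CPM in media and 144, 151 and 148 CPM in siNEG (log2 0.78), and ARID3A rose by 0.79 and TET3 by 0.73; these 3 were chosen after their values were seen. The HMGA2 site lies at chr12:65963303-65963330 on the plus strand, with the 8 matching bases in capitals.
HMGA2: cgttcgatttCTACCTCAgcagcagttg

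The machinery of RNA interference itself shifted in 4 of 19 genes tested (21.1%), all higher, beside 3.83% of all genes. The list median was 0.0411. DICER1, the RNase that cuts miRNA and siRNA precursors, was at 54.6, 65.8 and 66.2 CPM in media and 111, 123 and 121 CPM in siNEG (log2 0.93, SE 0.073, adjusted P = 3.16e-07). LIN28B, which blocks let-7 maturation, rose by 0.57 and AGO2, the Argonaute that slices its targets, by 0.39 (from 145, 169.5 and 168 CPM to 189.9, 222 and 222 CPM). TARBP2, a partner of Dicer, rose by 0.36, with an adjusted P of 0.0121 without siNEG replicate 3. In siEF against media DICER1 was at 0.21, LIN28B at 0.07 and AGO2 at -0.31, so the log2 values of AGO2 had opposite signs in the 2 transfected groups.

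Most genes of the ATF4 response fell, and they formed the list with the highest share of called members. ATF4 is the transcription factor through which amino acid shortage and other stresses raise amino acid transporters, tRNA ligases and serine and glycine enzymes. Of 37 members tested 24 were lower (64.9%, beside 5.96% of all genes) and 0 higher, and 36 of 37 had a log2 value below 0. The median was -0.349, beside -0.00121 over all genes. CHAC1, which degrades glutathione, was at 8.95, 8.06 and 7.12 CPM in media and 3.79, 3.74 and 3.65 CPM in siNEG (log2 -1.11, SE 0.13, adjusted P = 2.13e-05). DDIT4, an inhibitor of mTORC1, was at 10.3, 9.93 and 8.52 CPM in media and 5.12, 5.01 and 3.91 CPM in siNEG (log2 -1.04). The cystine transporter SLC7A11 was at 496, 553 and 578 CPM in media and 331, 325 and 313 CPM in siNEG (log2 -0.75, SE 0.054). STC2, a secreted glycoprotein, fell by 0.82. None of these 4 genes overlapped between the groups. ATF4 itself fell by 0.37 and DDIT3, the factor CHOP, by 0.38. The enzymes of serine synthesis PHGDH, PSAT1 and PSPH were lower by 0.35, 0.41 and 0.67, asparagine synthetase ASNS by 0.43 and the mitochondrial PCK2 by 0.59. Of the members with a 3′ UTR only PSPH and SLC7A11 among those lower held the 7-base word, and 22 of the 33 members without it were lower, again with a median of -0.349.

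The composite element of C/EBP and ATF factors was searched in the promoters of this list. Its motif TGATGNAA, searched on both strands in RefSeq promoters of GRCh38.p14 (250 bases before the start to 50 after), was in 6 of the 29 members with a promoter entry (20.7%), in 1.64% of the 10941 promoters of genes tested and in 3.67% of all 27305 promoters. Of the 19 called members with an entry 3 held it. The matches of CHAC1 and ASNS, 209 and 68 bases before the start, are shown in capitals within 100 bases, since both genes fell, and the match of CHAC1 is on the other strand. A match describes the letters and is no sign of binding.
CHAC1 (chr15:40953221-40953320, plus strand): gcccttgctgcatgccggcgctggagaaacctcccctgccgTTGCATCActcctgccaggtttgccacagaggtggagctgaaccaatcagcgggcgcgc
ASNS (chr7:97872423-97872522, minus strand): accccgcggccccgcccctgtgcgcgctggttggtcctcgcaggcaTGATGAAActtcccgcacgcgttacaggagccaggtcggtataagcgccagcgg

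Of 27 genes of endoplasmic reticulum (ER) stress and protein folding 12 were lower (44.4%, beside 5.96% of all genes) and 0 higher. Their median was -0.184. ERN1, the sensor IRE1, was at 22.7, 24.6 and 25.3 CPM in media and 15.3, 14 and 14.7 CPM in siNEG (log2 -0.72, SE 0.069). EDEM1, which directs misfolded proteins to degradation, fell by 0.67, CREB3L2 by 0.53, HERPUD1 by 0.52 and the transcription factor XBP1 by 0.44. The chaperone HSPA5 was lower by 0.23. EDEM1 and CANX held the 7-base word, and without holders 10 of 22 members were lower. Of 22 heat shock chaperones 4 were lower (18.2%), at a median of -0.0445, with CRYAB at -0.48. Of 31 genes of NRF2 and oxidant defence 4 were lower and 3 higher (median -0.0673), among them the aldo-keto reductases AKR1C3 (0.64) and AKR1B1 (0.40) higher, and 3 of the 4 lower genes held the word. GPX3 had 0 counts in the media libraries and 11, 2 and 6 in siNEG, too few for a fold, and its call was lost without siNEG replicate 1 or 3 or any media library (adjusted P between 0.0143 and 0.022). In siEF against media, 27 of 37 ATF4 members and 18 of 27 of the ER list were lower, beside 5193 of all 16093 genes. However, DDIT4 was at 1.89 and HERPUD1 at 1.08 there.

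In the cholesterol synthesis list every called gene was higher. Its genes are controlled by SREBP2, which is activated when sterol in the endoplasmic reticulum is low. Of 25 members tested 12 were higher (48%, beside 3.83% of all genes) and 0 lower. In 23 the log2 value was above 0, and the median was 0.317. The sterol demethylation enzyme MSMO1 was at 67, 69.9 and 77.3 CPM in media and 124, 136 and 129.8 CPM in siNEG (log2 0.87, SE 0.056, adjusted P = 3.21e-08). HMGCS1, which makes HMG-CoA, was at 89.5, 95.7 and 93.9 CPM in media and 157, 169.7 and 169 CPM in siNEG (log2 0.83, SE 0.055). IDI1, an isoprenoid isomerase, was at 60.3, 60.4 and 60.3 CPM in media and 86, 88 and 86 CPM in siNEG, and INSIG1, which retains SREBP, at 56.9, 57.2 and 58 CPM and 78.3, 84.2 and 83.9 CPM, each with a log2 value of 0.52. No library of one group overlapped the other in these 4 genes. HSD17B7 rose by 0.50 and MVD by 0.45. None of the 25 members held the 7-base word in its 3′ UTR. The SREBP motif TCACNCCAC (both strands) was in 1 of the 18 promoters found for the list, that of SREBF2, beside 1.15% of all promoters. SREBF2 was not called (log2 0.0785), and the motif was in 0 of the 8 called members with a promoter entry. In siEF against media MSMO1 was at 0.26, HMGCS1 at 0.56, IDI1 at -0.19 and INSIG1 at -0.68.

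The other lipid lists and those of uptake held 1 to 8 calls each, to be read beside 3.83% higher and 5.96% lower of all genes. Of 26 genes of fatty acid and membrane lipid synthesis 2 were higher and 2 lower (median 0.02), with SCD, the stearoyl-CoA desaturase, higher by 0.35. Of 10 LXR targets 1, MYLIP, was higher (0.44), with a list median of 0.032. Of 27 genes of fatty acid oxidation, lipid droplets and PPAR 4 were lower (14.8%, median -0.0945), with ANGPTL4 at -0.69 and ACADM, a fatty acid dehydrogenase, at -0.35. Of 31 genes of endocytosis 5 were lower (16.1%) and 0 higher (median -0.0558), led by CAVIN1, a coat protein of caveolae. CAVIN1 was at 243, 238 and 220.4 CPM in media and 147, 151 and 154 CPM in siNEG. Of the 5 lower genes 2, CAVIN1 among them, held the 7-base word, and 3 of the 27 members without it were lower. CAV1, the membrane protein of caveolae, fell by 0.23. Of 34 lysosomal genes 5 were lower (14.7%) and 3 higher (8.82%, median 0.00363), with the proton pump subunit ATP6V1A at -0.70 and LAMP2 at -0.42, both holders of the 7-base word, and the sialidase NEU1 at 0.63. Of 27 autophagy genes 2 were higher, with GABARAPL1 at 0.32 and a list median of 0.0449.

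**Figure D3:**
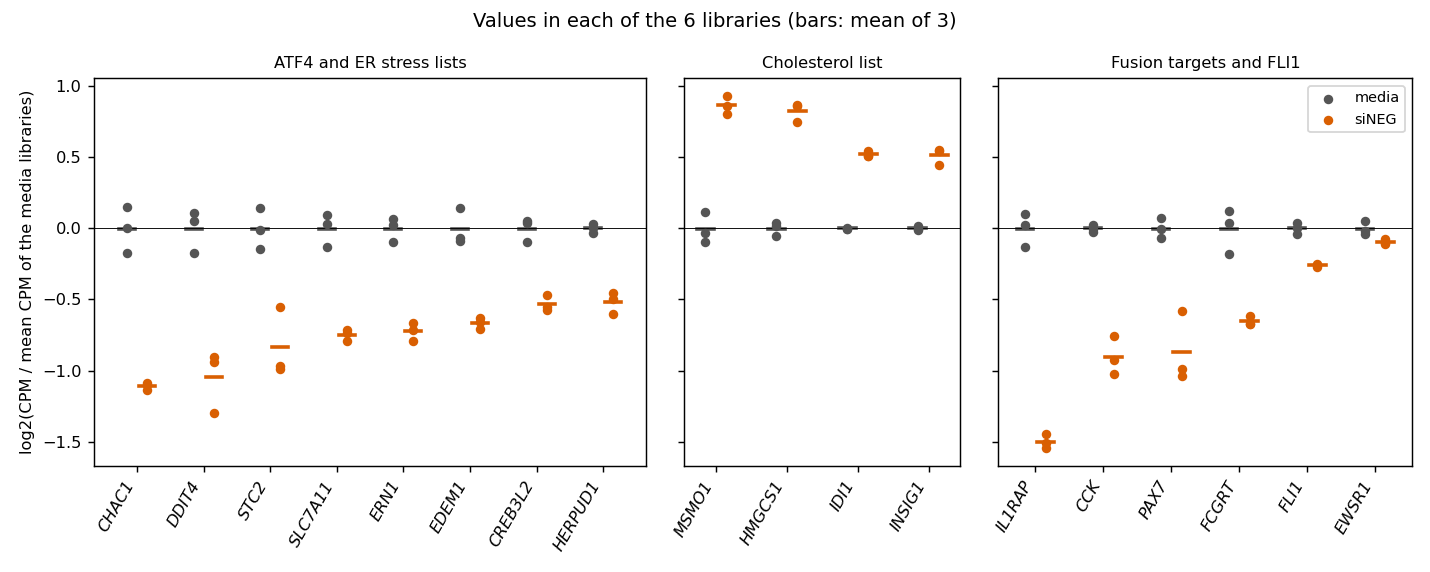
log2 of CPM over the mean CPM of the media libraries, in each of the 3 media (grey) and 3 siNEG (orange) libraries, for members of the ATF4 and ER stress lists, the cholesterol list, and fusion targets with FLI1 and EWSR1; bars are means of 3. In siNEG the ATF4 and ER stress members lie below the media libraries and the cholesterol members above them, while EWSR1, at -0.09, lies near them.

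Interferon-stimulated genes, which type I interferon raises in response to foreign RNA, were called higher in 9.09% of members, beside 3.83% of all genes. Of 44 tested 4 were higher and 0 lower, 34 had a log2 value above 0, and the median was 0.152. PARP14 was at 35.3, 40.8 and 37.9 CPM in media and 49.8, 52.1 and 53.8 CPM in siNEG (log2 0.45), and DDX60, a helicase of the antiviral response, at 9.93, 10.8 and 10.6 CPM and 14, 14.8 and 15.8 CPM (log2 0.52). BST2 and OAS3 were the others, and without siNEG replicate 2 their adjusted P was 0.012 and 0.0656; the call of OAS3 was lost without any of the 6 libraries. Of 17 RNA and DNA sensors and adaptors 0 were called (median 0.0385), and the RNA-activated kinase EIF2AK2 and the editing enzyme ADAR were at log2 values of -0.0015 and 0.039, with overlapping groups. Of 19 genes of HLA class I and antigen processing 2 were higher (median 0.0392), with the peptide-trimming enzyme ERAP1 at 0.43. Of 23 genes of the NF-kB list (median -0.0104) 1 was higher, the protease PLAU at 0.92, and 2 were lower, BCL3 and NFKB1, with an adjusted P of 0.0303 and 0.0107 without siNEG replicate 2. Of 27 cytokines and chemokines 14 had enough counts (median 0.418), and IL1A and IL1B were higher and CXCL14 lower. IL1B was at 0.751, 0.571 and 0.629 CPM in media and 1.36, 1.86 and 1.38 CPM in siNEG (log2 1.23), and its call was lost without siNEG replicate 2, media replicate 2 or media replicate 3 (adjusted P between 0.011 and 0.0225). Of 21 ligands and receptors of the IL-1 and TNF families 4 were higher and 1, IL1RAP, lower (median 0.181), with the death receptor TNFRSF21 at 0.69.

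Part of the genes that the EWS::FLI1 fusion is known to induce were lower in siNEG, which is not directed at the fusion. Of 33 fusion-induced targets 16 were lower (48.5%, beside 5.96% of all genes) and 0 higher, with a median of -0.33. CCK, a neuropeptide, was at 111, 109 and 108 CPM in media and 64.6, 53.7 and 57.5 CPM in siNEG (log2 -0.90, SE 0.063). PAX7, a lineage transcription factor, was at 7.74, 8.09 and 8.56 CPM in media and 3.95, 5.42 and 4.1 CPM in siNEG (log2 -0.85), and the Fc receptor FCGRT fell by 0.66. The groups did not overlap in these 3 genes. The study's text names 10 of the 33 genes as established microsatellite targets of the fusion, and without those 10, 10 of 23 were lower with a median of -0.269. IL1RAP, STEAP2 and SOX6 held the 7-base word, and 13 of the 28 members without it were lower. Of 23 fusion-repressed targets 9 were higher (39.1%) and 5 lower (21.7%), beside 3.83% higher and 5.96% lower of all genes (median 0.266). PLAU, THBS1, CDKN1A, DKK1 and IGFBP3 were among the rises, and CAV1, ZYX, CCN1, CCN2 and IGFBP5 were the falls. CAV1 goes against the list's name in these data, as it was lower in siEF than in media as well (-0.91). The other 22 members were higher there, beside 5413 of all 16093 genes. Of 10 Ewing identity markers 6 were lower (median -0.306), among them NKX2-2 at -0.46 and NR0B1 at -0.37.

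FLI1, whose 3′ exons are part of the fusion transcript, was at 59.5, 56.2 and 57.9 CPM in media and 48.6, 48.5 and 48 CPM in siNEG. The log2 fold change was -0.26 (SE 0.055, adjusted P = 0.00347), and the groups did not overlap. The call was lost without siNEG replicate 1, 2 or 3 or media replicate 1 (adjusted P between 0.0114 and 0.0172). EWSR1 was at -0.09 (adjusted P = 0.146). In siEF against media FLI1 was at -0.61, CCK at -3.95 and PAX7 at -3.73.

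Cell cycle lists differed from each other. Of 41 DNA replication genes 1 was higher and 0 lower, at a median of -0.00255, and of 38 mitotic genes 5 were lower (13.2%, beside 5.96% of all genes, median -0.00754), by 0.26 to 0.30. The single replication gene was CCNE1, the cyclin of S phase entry, at 13, 10.6 and 9.92 CPM in media and 21.9, 22.7 and 22.6 CPM in siNEG (log2 1.00, SE 0.097). Of 14 CDK inhibitors and D cyclins 5 were higher (35.7%, beside 3.83% of all genes, median 0.0208), with CDKN1A, the inhibitor p21, at 16.8, 16.8 and 16.2 CPM in media and 24.9, 27 and 29.6 CPM in siNEG and CDKN1B, the inhibitor p27, at 46.5, 45.9 and 48.1 CPM and 66.4, 70 and 65.5 CPM. CDKN1A and CDKN1B rose by 0.71 and 0.53 on the log2 scale and did not overlap between the groups. Of 30 p53 targets 4 were higher (median 0.0843), among them CDKN1A, TP53INP1 (0.79) and CCNG1 (0.30). Of 23 genes of the BCL2 family and caspases (median -0.0101) 4 were higher, with the BH3 protein BMF at 0.49 and BCL2L2 at 0.42, and 2 lower, XIAP at -0.62 and cytochrome c CYCS at -0.40, which both held the 7-base word.

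Lists of growth and energy differed in their share of calls, beside 3.83% higher and 5.96% lower of all genes. Of 77 ribosomal protein genes 0 were called by edgeR, with log2 values between -0.0868 and 0.18 and a median of 0.0432, beside 4869 of the 16093 genes at an unadjusted P under 0.05. Of the 13 mitochondrial genome transcripts (median -0.151) and the 17 circadian clock genes (median 0.00103) 0 were called as well, although other fits called up to 3 ribosomal protein genes higher and up to 4 mitochondrial transcripts lower. Of 34 ribosome biogenesis genes 2 were lower (median -0.0316), and of 33 nuclear genes of oxidative phosphorylation 1 was higher and 1 lower (median 0.0136). Of 37 genes of glycolysis and hypoxia 3 were higher and 3 lower, with the glucose transporter SLC2A3 at 45.3, 44.3 and 46.5 CPM in media and 89.5, 91.9 and 94 CPM in siNEG (log2 1.02, SE 0.056) and VEGFA at -0.49, around a median of -0.0237. Of 26 genes of nutrient withdrawal, FOXO and MondoA 6 were higher (23.1%) and 4 lower (15.4%), with a median of 0.132. TXNIP, which restrains glucose uptake, was among the rises, at 43.3, 38 and 35 CPM in media and 63, 61.9 and 60.9 CPM in siNEG. Of 9 metallothionein and zinc transport genes 2 were higher, MT1X (0.45) and MT2A, and 2 lower (median 0.258). The call of MT2A was lost in 5 of the 6 fits without 1 library (adjusted P between 0.0113 and 0.0501), and near-identical metallothioneins may share reads.

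Called genes of the matrix glycoproteins were higher and those of the integrins and cadherins lower. These were 33.3% and 14.3% of their lists, beside 3.83% higher and 5.96% lower of all genes. Of 30 collagens and matrix glycoproteins 10 were higher and 0 lower (median 0.183). COL11A1, a fibrillar collagen, was at 92.6, 98.3 and 96.3 CPM in media and 149, 162 and 159 CPM in siNEG (log2 0.71, SE 0.047), and the laminin LAMA4 at 40.5, 43.9 and 41.8 CPM and 68.3, 73 and 74.2 CPM (log2 0.77). The basement membrane genes COL4A1, COL4A2, NID1, NID2 and LAMB1 were higher by 0.26 to 0.55. Of 28 integrins and cadherins 4 were lower and 0 higher (median -0.177), with ITGB1, the shared beta chain of many integrins, at 519, 542 and 553 CPM in media and 369, 378 and 385 CPM in siNEG (log2 -0.51), and ITGA1, a word holder, at -0.76. Of 23 genes of hyaluronan and proteoglycans 4 were higher and 2 lower (median 0.0177), with HAS3 highest and the hyaluronidase CEMIP2 lowest (-0.78). Of 23 matrix proteases and inhibitors 3 were higher and 3 lower (median -0.0163), with PRSS35 and ADAMTS1 (-0.66), both word holders, among the falls. Of 25 genes of the actin cytoskeleton (median 0.0272) 3 were higher, with ACTA2 at 0.62, and 3 lower, with the focal adhesion protein ZYX at -0.35.

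Most signalling lists held calls in both directions, to be read beside 3.83% higher and 5.96% lower of all genes. The shares called higher were 10.7%, 20%, 14.7%, 16.7% and 11.1% of the immediate early, ERK, TGF-beta, WNT and Notch lists. The shares called lower were 21.4%, 15%, 11.8%, 10% and 11.1%, with 22.7% of the YAP list. Of 28 immediate early genes 3 were higher, with EGR1 at 9.31, 10.2 and 9.57 CPM in media and 14.3, 14.3 and 15.1 CPM in siNEG (log2 0.59) and EGR3 at 1.89, and 6 lower (median -0.142), with KLF2 at -0.99. Of 20 ERK-induced genes 4 were higher and 3 lower (median -0.00444), with the phosphatase DUSP6 at 0.56 and ETV4 at 1.48 against ETV1 at -0.57. Of 22 YAP and TEAD targets 5 were lower and 0 higher (median -0.0744), led by ANKRD1 at -0.71. Of 34 genes of TGF-beta and BMP 5 were higher and 4 lower (median 0.0391), with the receptors ACVR2B (0.92), TGFBR3 (0.68) and TGFBR2 (0.56) higher and TGFBR1 lower by 0.38. Of 30 WNT genes (median -0.0306) 5 were higher, with the antagonist DKK1 at 0.68, and 3 lower, with the receptor FZD4, which has 2 copies of the word, at 63.9, 68.6 and 69.6 CPM in media and 35.5, 34.8 and 33.9 CPM in siNEG (log2 -0.96). Of 18 Notch genes 2 were higher, with HEY1 at 0.59, and 2 lower (median -0.107). Of 18 neuronal and synaptic genes 2 were lower (11.1%, median -0.163). Of 24 ion channels and pumps 3 were lower (12.5%, median -0.154), with the potassium channel KCNN1 at -0.69.

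Markers of other cells gave 4 calls in all. Of 7 epithelial genes tested (median -0.581) EPCAM, a word holder, was lower, with 13, 10 and 13 counts in media and 1, 3 and 0 in siNEG. That call was lost without siNEG replicate 1 or 3 or media replicate 1 or 3 (adjusted P between 0.0155 and 0.023). Of 6 endothelial genes (median 0.815) KDR was higher, and of 2 immune genes (median -0.165) 0 were called. Of 9 fibroblast genes (median -0.0669) PDGFRB, a receptor of platelet-derived growth factor, was higher (0.38) and THY1 lower (-0.42).

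**Figure D4:**
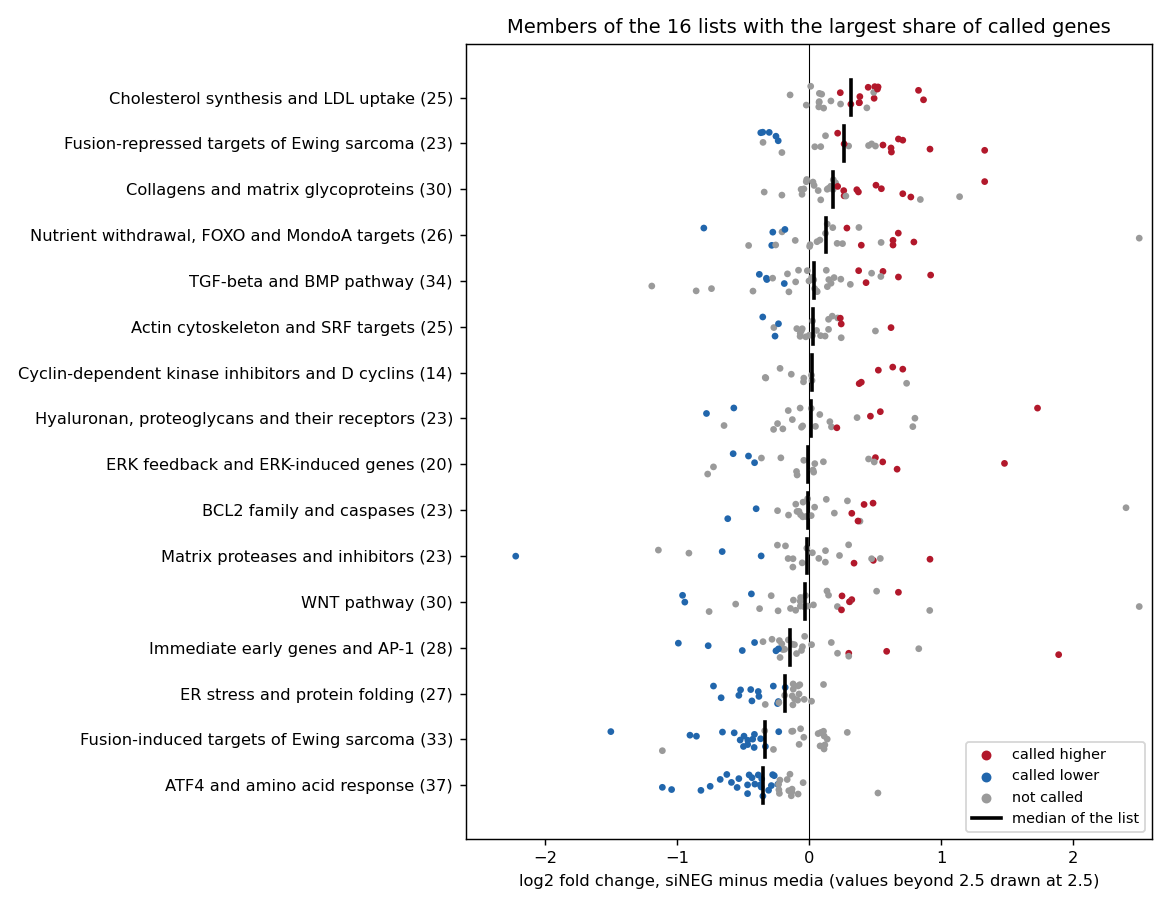
log2 fold change of siNEG minus media (x axis) for each tested member of the 16 lists, of those with at least 10 tested members, that have the largest share of called genes; red points were called higher, blue lower and grey not called, the bar is the list's median and the number of members tested is in brackets. The ATF4, fusion-induced and ER stress lists have calls on the lower side alone. The cholesterol list and the list of collagens and matrix glycoproteins have them on the higher side alone.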

How the data were processed

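Poly(A) RNA of TC32 cells was sequenced, although the extraction label names a small RNA library kit. The authors trimmed reads with cutadapt 2.10 and deposited gene-level expected counts from STAR 2.7.1a and RSEM 1.3.1 on hg38. The annotation release and the strand setting are not given in the sources used here, so reads of overlapping genes cannot be told apart. Expected counts were rounded and fitted with edgeR 4.0.16 (R 4.3.3): TMM scaling, filterByExpr, and a quasi-likelihood test over all 9 libraries with 1 mean per group. P values were adjusted by Benjamini-Hochberg over the 16093 genes tested. Genes below 0.01 after adjustment were called, and a second rule asked in addition for a change past 1 on the log2 scale.

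CPM used the TMM-scaled totals. The 51 lists, their genes and the comparison were chosen with earlier results of these data known. Named genes were the 10 largest rises and falls, up to 4 called members per list (where none was called, the 2 of highest CPM), FLI1 and EWSR1. ARID3A, ASNS, ATF4, CANX, CCN1, COL4A2, DDIT3, HMGA2, HSD17B7, HSPA5, IGFBP3, IGFBP5, LAMB1, MVD, NID1, NID2, PCK2, PHGDH, PSAT1, PSPH, SOX6, SREBF2, STEAP2, TET3, TGFBR1 and XBP1 were named outside that rule after their values were seen. Of 60603 identifiers 99.5% matched GENCODE release 44, which gave the 3′ UTRs. The fit was tested on simulated data with known changes between siNEG and media. It called 59 of 100 genes set to a log2 change of 0.5 in size, and 78 of 100 set to 1. It also called 4 unchanged genes. Genes that change by such sizes can therefore go uncalled. P values measure the spread between libraries labelled as biological replicates. Alternatives were other scalings, filters and tests (DESeq2 1.42.0), a replicate block, and leaving out each library.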

Additional observations from a re-analysis of the deposited data

How the results depend on the processing

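Of the 170 genes tested under the naming rule, none reversed its direction in an alternative where it was called there or in the main fit. Sign changes of genes called in neither fit were not counted, and the genes named outside that rule were not run. At an adjusted P under 0.05 in place of 0.01, 1225 genes were higher and 1640 lower, with 59 and 77 beyond 1 on the log2 scale. With no filter beyond 1 count, 62 and 82 genes lay beyond 1. A test against a log2 fold change of 1 (edgeR's glmTreat) left 0 higher and 7 lower. Leaving out 1 library gave between 332 and 587 higher and 634 and 893 lower genes, and beyond 1 between 21 and 28 and between 34 and 47. The calls over the lists (240) lay between 177 and 226, and those of the named genes (159) between 122 and 140. DESeq2 gave 787 higher and 1125 lower genes. Of the 159 named genes called, 46 lost the call without at least 1 library and 6 under another scaling or DESeq2. Scaling moved the median of all genes by at most 0.0129. The holders of the 3′ UTR word called lower (329) lay between 262 and 383, over alternatives chosen after seeing the data.

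The deviations of same-numbered libraries from their group means correlated at 0.00688, 0.0167 and -0.0295. These values showed no pairing by replicate number, but they cannot exclude that same-numbered samples were handled together. With the replicate number as a block, 595 genes were higher and 903 lower, and 22 and 39 beyond 1. siNEG replicates 1 and 3 correlated best with another number of media (0.0447 and 0.035).

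Lists with few calls rest on few genes: over the alternatives the endocytosis list had 2 to 8 lower genes, the heat shock list 1 to 4 and the interferon-stimulated list 2 to 5 higher. The median of the mitochondrial genome list ranged from -0.648 to 0.15. The ATF4 list kept 20 to 26 lower genes, the endoplasmic reticulum list 9 to 13 and the cholesterol list 9 to 15 higher.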
